A study of Mus musculus with 12 samples.

Results

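The neurotrophins and their receptors were examined as 7 genes of the 55413 genes in the mouse annotation: *Bdnf* and *Ntf3*, which encode the secreted growth factors BDNF and neurotrophin 3; *Ntrk2*, *Ntrk3* and *Ngfr*, which encode the receptors TrkB, TrkC and p75; *Sort1*, which encodes the sorting receptor sortilin; and *Vgf*, which encodes a secreted peptide precursor induced by neurotrophins. The genes were chosen by name. For each of them, the peaks of acetylation of histone H4 at lysine 12 (H4K12ac) were collected within 2 kb of the transcription start site (TSS), within 2 kb of the start of every alternative transcript, and across the gene body. H4K12ac ChIP-Seq had been performed on neuronal nuclei sorted by FACS from the whole hippocampus, in 5 Tip60cKO and 5 control samples. Each sample gave 1 library and 1 peak list. The samples are numbered within each genotype, and each is taken as 1 mouse below. Tip60cKO mice carried the floxed *Tip60* allele on both chromosomes together with the tamoxifen-inducible CaMKCreERT2 driver, while controls carried the floxed alleles without the driver, and both received tamoxifen. *Tip60*, also named *Kat5*, encodes a lysine acetyltransferase of histones. All mice were labelled male and 3 months old. Their strain is labelled C57BL/6J, and the methods of the study give C57BL/6N. The driver acts in excitatory forebrain neurons, so sorted nuclei of other neurons keep *Tip60*, and nuclei with and without recombination cannot be told apart in these lists.

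Neurotrophins are secreted dimers that neurons use for survival, growth and synaptic plasticity. BDNF acts through TrkB and neurotrophin 3 mainly through TrkC, and both receptors are tyrosine kinases that signal through the MAPK, PI3 kinase and phospholipase C pathways. The p75 receptor binds all neurotrophins and their precursors, often in a complex with sortilin, which also carries proBDNF through the secretory pathway. *Bdnf* is known for a row of alternative promoters, each with its own 5′ exon spliced to a common coding exon, several of which respond to neuronal activity. H4K12ac is found at active promoters and in the bodies of transcribed genes.

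The 7 genes differ in the number and spread of their starts, and transcript starts less than 500 bp apart were joined to 1 start group. *Bdnf* lay on chr2:109674700-109727007 (plus strand, 52.3 kb) with 8 start groups, *Ntf3* on chr6:126101412-126166910 (minus strand, 65.5 kb) with 2, and *Ntrk2* on chr13:58806569-59133970 (plus strand, 327 kb) with 4. *Ntrk3* lay on chr7:78175959-78738012 (minus strand, 562 kb) with 11 start groups, *Ngfr* on chr11:95568818-95587735 (minus strand, 18.9 kb) with 1, *Sort1* on chr3:108284082-108361511 (plus strand, 77.4 kb) with 2, and *Vgf* on chr5:137026392-137033351 (plus strand, 6.96 kb) with 2, all on GRCm38. Start groups are numbered from the 5′ end of the gene.

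The sequences before 4 starts with different acetylation are shown, because the results differ between these starts: *Bdnf* start 3 (chr2:109676782-109677031, plus strand) and start 4 (chr2:109692186-109692435, plus strand) had a peak in every list, *Ntf3* start 2 (chr6:126164961-126165210, minus strand) in 9 lists and *Ngfr* (chr11:95587736-95587948, minus strand) in none. They were taken from RefSeq on GRCm38.p6 and end at the base before the start, with the *Ngfr* sequence of 213 bases and the others of 250. Capitals mark the SP1 motif GGGCGG and the CRE core TGACG on either strand. No 2 of the marked motifs overlap.
Bdnf start 3: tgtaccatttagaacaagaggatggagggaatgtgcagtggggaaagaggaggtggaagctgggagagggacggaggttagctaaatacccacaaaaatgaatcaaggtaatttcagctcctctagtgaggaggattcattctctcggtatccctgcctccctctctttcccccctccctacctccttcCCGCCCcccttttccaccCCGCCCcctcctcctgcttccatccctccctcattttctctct
Bdnf start 4: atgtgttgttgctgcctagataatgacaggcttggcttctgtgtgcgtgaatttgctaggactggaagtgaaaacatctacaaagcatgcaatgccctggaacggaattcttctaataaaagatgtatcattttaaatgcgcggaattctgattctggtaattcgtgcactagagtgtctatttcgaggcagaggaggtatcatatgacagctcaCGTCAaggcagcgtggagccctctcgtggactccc
Ntf3 start 2: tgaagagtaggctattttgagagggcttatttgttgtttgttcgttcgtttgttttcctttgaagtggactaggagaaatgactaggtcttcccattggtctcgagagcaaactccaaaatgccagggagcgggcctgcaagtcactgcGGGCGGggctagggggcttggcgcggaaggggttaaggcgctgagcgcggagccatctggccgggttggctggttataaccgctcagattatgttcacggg
Ngfr start 1: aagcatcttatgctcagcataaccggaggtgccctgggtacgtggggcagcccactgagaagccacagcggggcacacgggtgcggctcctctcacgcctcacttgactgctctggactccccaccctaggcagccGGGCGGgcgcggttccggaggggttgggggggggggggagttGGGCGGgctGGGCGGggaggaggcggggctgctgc
The tables held 11 promoters for 4 of the 7 genes, 7 of *Bdnf*, 2 of *Ntf3* and 1 each of *Ntrk2* and *Ngfr*. SP1 letters were found in 5 of these 11, against 32.7% of 32851 mouse promoters of 250 bases searched on both strands. A CRE core was found in 1 of the 11, before *Bdnf* start 4, against 17.8% of all promoters, and no promoter of the 11 held the full CRE letters TGACGTCA, which 1.55% of all promoters held. The *Ngfr* start, without a peak, held 3 SP1 motifs and 14 CG dinucleotides, while *Bdnf* start 3 held 2 SP1 motifs and 4 CG dinucleotides.

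The libraries held 22864189 to 37923809 tags after duplicates were removed, and their lists 64245 to 136409 peaks. The list of Tip60cKO mouse 5, the library with the fewest tags, was the shortest. The local background that MACS derived from the input of each genotype equalled the genome-wide level, to within a small tolerance, at 44.5 to 56.9% of peaks in Tip60cKO lists and at 26.4 to 33.4% in control lists. There was 1 pooled input per genotype, so the local backgrounds of its 5 mice share that input and their SD and ranges are descriptions over peaks, not over replicates. The labels of the tissue were checked with markers at the TSS. Peaks of all 10 lists covered 5 of 5 pan-neuronal and 4 of 5 excitatory markers but none of 5 inhibitory, 4 astrocyte and 4 endothelial markers, and no list held a peak for any of the 5 oligodendrocyte and 4 microglial markers. *Gad1*, *Sst*, *Aldh1l1*, *Aqp4* and *Pecam1* had no peak in any list. The summed signal of the astrocyte list, as the mean rank score explained in the next paragraph, ranged from 0 to 33.4 in Tip60cKO and from 16.4 to 38.7 in control libraries, and its part in the results was not tested. Coverage of the TSS window of the astrocyte marker *Gfap* fell from 19.6 ± 4.87% in control to 4.60 ± 3.36% in Tip60cKO mice (limma adjusted p-value 0.0287), and that of the neuronal marker *Syt1* fell from 51.4 ± 7.8% to 29.2 ± 7.07% (limma adjusted p-value 0.0315). No other marker was called in coverage. Over all genes tested, 81.0% had lower coverage in Tip60cKO mice and 1.56% were called. The calls of *Gfap* and *Syt1* were each lost in 7 of 10 fits without 1 mouse, where adjusted p-values reached 0.0853 and 0.0875. Their part in the coverage results of *Ntf3* and *Mapk3* was not tested. The targeted gene *Kat5* kept its TSS peak in each of the 10 lists. Its score was 94.8 ± 5.07 in Tip60cKO and 97.6 ± 2.08 in control mice (SD, n = 5). In the paper, the sites that flank the deleted stretch lie upstream and downstream of the start codon of *Tip60*. Where the *Kat5* peaks lay relative to this stretch was not examined, so the deletion was not tested here.

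Because the peak lists differ in length and hold no counts per region, each TSS was given a rank score in each library, the percent rank of the fold enrichment of its strongest peak among all TSSs of that library, and 0 without a peak. Fold enrichment is the height of the pileup over the local background, with 1 added to both. At the annotated 5′ end of the gene, *Ntrk2* and *Sort1* were acetylated in all 10 lists, *Bdnf* in 8, *Vgf* in 4, *Ntf3* in 2, and *Ntrk3* and *Ngfr* in none. None of the 5 genes tested at the 5′ end passed limma at an adjusted p-value below 0.05, a threshold that 0.235% of the 21672 genes tested passed. Of these 5, *Vgf* had an unadjusted limma p below 0.05, as had 11.8% of all genes tested, and *Sort1* and *Vgf* had an exact permutation p below 0.05 (two-sided, 5 against 5 mice), as had 12.5%. *Vgf* entered these tests, and those of TSS coverage and start groups below, through its control peaks alone, so its p-values support nothing.
Over the share of the 4 kb TSS window that peaks covered, 0 of these 5 genes passed either, against 1.56% of all genes tested, and *Ntrk2* and *Vgf* had an unadjusted limma p below 0.05, as had 23.2%.
None of the start groups tested passed limma, against 0.241% of 36537 start groups in the genome, and *Bdnf* start 8 and *Vgf* start 1 had an unadjusted p below 0.05, as had 11.3% of all start groups. *Bdnf* start 8 had a peak in 1 Tip60cKO and 4 control lists and entered through its control peaks, so its p-value supports nothing either. The plot of rank scores by start group shows that acetylated starts of a gene often lay inside the gene rather than at its 5′ end.

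**Figure D1:**
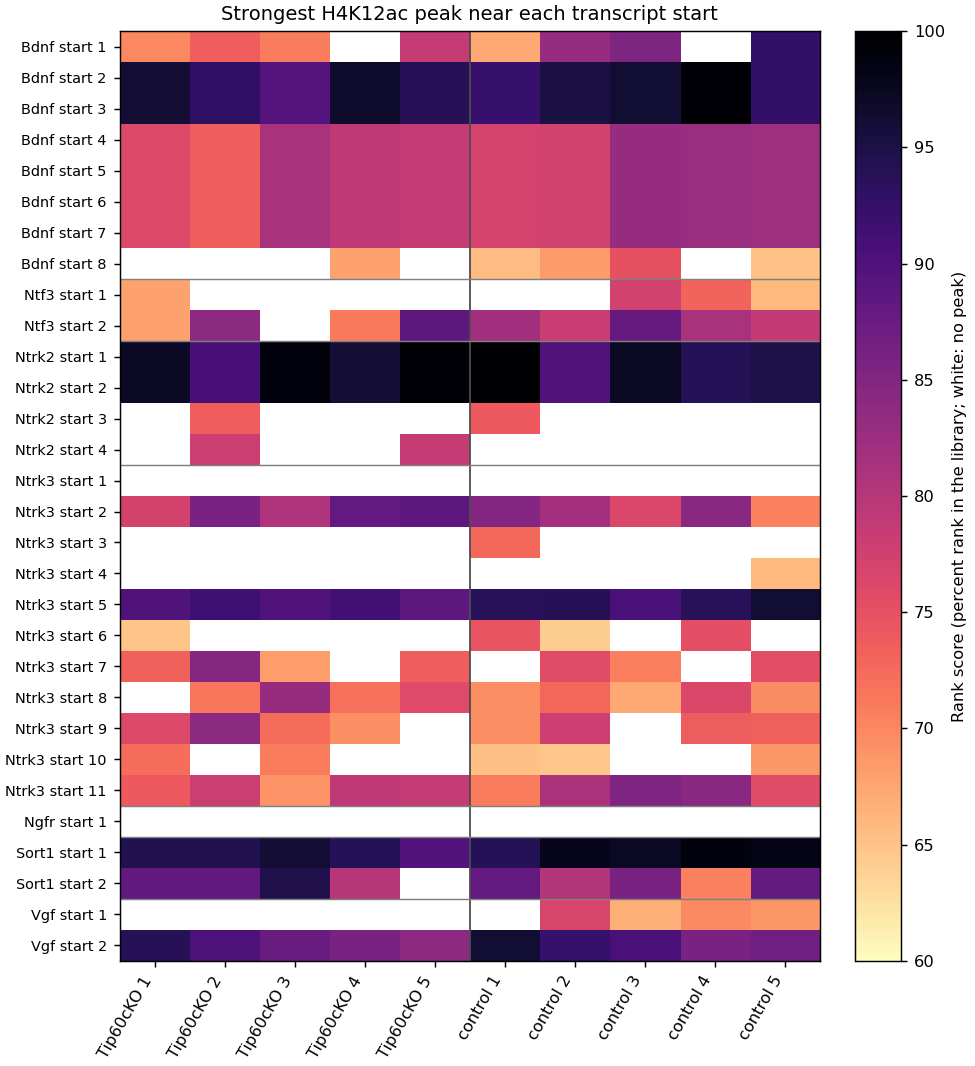
Rank score of the strongest H4K12ac peak within 2 kb of each start group of the 7 genes, with one row per start group, one column per mouse and the colour scale giving the percent rank in the library (white, no peak). *Vgf* start 1 has peaks in control mice alone, and *Ntrk3* start 5 lies between 88.5 and 96.1 in all 10 mice while *Ntrk3* start 1 is white.

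At *Bdnf*, H4K12ac was concentrated 2.58 to 3.00 kb downstream of the 5′ end, just downstream of start 3, in all 10 mice. At the first start the rank scores were 69.7, 72.5, 71.0, 0 and 77.1 in Tip60cKO mice 1 to 5 and 67.7, 81.4, 83.5, 0 and 91.9 in control mice 1 to 5. One mouse of each genotype had no peak there and the groups overlapped, with an adjusted p-value of 0.929. In the region chr2:109675857-109678066, which covers exons with UTR of start groups 2 and 3, the fold enrichment was 7.40, 5.95, 5.65, 7.38 and 6.00 in Tip60cKO and 6.99, 7.72, 8.39, 10.2 and 6.75 in control mice. The mean was 6.48 ± 0.846 in Tip60cKO and 8.01 ± 1.39 in controls (SD, n = 5), the groups overlapped, and the exact permutation p was 0.0635. On the scaled pileup, the pileup per 10000000 tags of the library, which does not use the input, the same peak reached 8.50 ± 1.09 and 10.9 ± 2.13, with an exact permutation p of 0.0397. This region was named for its control values, so its p-values are descriptions. Over all genes with a peak in all lists, the median ratio of the strongest scaled pileup in Tip60cKO to that in controls was 0.843. The second acetylated region, chr2:109692883-109694756 at 19.1 kb, held start groups 5 to 7 and was shared by group 4 within 2 kb. Its scaled pileup was 4.85, 4.06, 6.07, 5.47 and 5.25 in Tip60cKO and 7.10, 5.89, 6.94, 6.56 and 7.65 in control mice. The lowest control overlapped the highest Tip60cKO mouse, with means of 5.14 ± 0.748 and 6.83 ± 0.653 and an exact permutation p of 0.0159. This region was singled out after its values were seen. Its fold enrichment was 3.99 ± 0.336 and 4.65 ± 0.505 (exact permutation p 0.0635). At start 8, the most 3′ group, 1 Tip60cKO and 4 control lists had a peak within 2 kb, with a limma adjusted p-value of 0.441. This start entered the test through its control peaks, so the values are a description. The sequence before *Bdnf* start 4 shown with its CRE core lies just upstream of the second region, and that before start 3 lies inside the first. In the gene body, from 2 kb past the TSS to the end, peaks covered 5.78, 3.58, 5.20, 4.36 and 3.01% in Tip60cKO and 8.71, 7.46, 7.89, 5.04 and 7.63% in control mice. This stretch holds start groups 3 to 8 and the strongest peaks of *Bdnf*, so its coverage does not separate inner promoters from the rest of the body. Control mouse 4 was the lowest control and fell within the Tip60cKO range. The mean share was 4.38 ± 1.13% against 7.35 ± 1.38%, and the limma adjusted p-value was 0.134. With 1 mouse left out at a time the adjusted p-value ranged from 0.0371 to 0.262, and *Bdnf* was called only without control mouse 4 (difference -3.54 percentage points), a fit that called 250 of 12652 gene bodies against 45 of 12823 with all mice. Local background over the peaks of *Bdnf*, as a multiple of the genome level, was 1.04 ± 0.0491 in Tip60cKO and 1.16 ± 0.0663 in control mice, and its part in this difference was not tested. Antisense gene Gm45346 overlaps the *Bdnf* 5′ end, and ChIP signal has no strand.

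**Figure D2:**
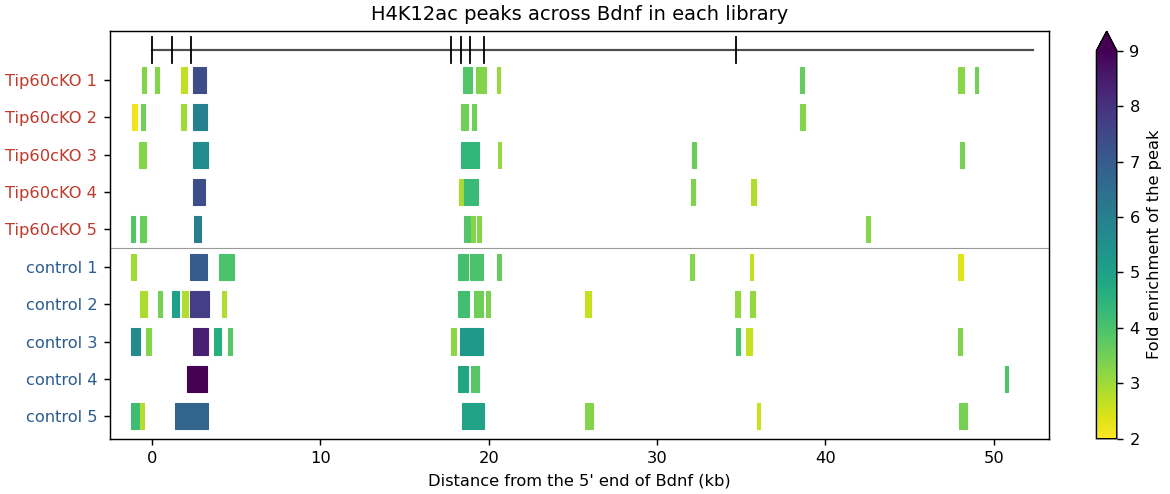
H4K12ac peaks along *Bdnf* in each of the 10 mice (x axis, distance from the 5′ end in kb, one row per library, colour for fold enrichment), with the start groups as ticks above. The strongest peaks lie at 2.58 to 3.00 kb and a weaker cluster at 19.1 kb in all lists.

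*Ntf3* had fewer peaks and a smaller share of its body in peaks in Tip60cKO mice. The gene body was covered to 1.35, 3.02, 1.13, 4.65 and 1.79% in Tip60cKO mice and to 6.78, 7.2, 7.63, 6.91 and 6.68% in control mice. Every Tip60cKO value lay below every control value, as for 3.96% of the 12823 gene bodies tested. Mean coverage was 2.39 ± 1.46% in Tip60cKO and 7.04 ± 0.386% in controls, 2.95-fold lower in Tip60cKO, a difference of -4.65 ± 0.657 percentage points (SE) with a limma adjusted p-value of 0.0430 and an exact permutation p of 0.00794, the smallest that 5 against 5 mice allow. Among the 6 member genes whose bodies were tested, *Ntf3* was the one that passed, against 0.351% of all gene bodies, and when each mouse was left out in turn the adjusted p-value ranged from 0.0138 to 0.104. It stayed below 0.05 without Tip60cKO mouse 4 and without control mouse 4 and was above it without any of the other mice. With a trended robust prior it was 0.0819, which ended the call. The number of peaks was 4, 6, 3, 9 and 4 in Tip60cKO and 13, 10, 15, 13 and 12 in control lists, and these groups did not overlap, as for 0.819% of 23691 genes. As a share of the peaks of each list the numbers did overlap, at 0.520 ± 0.257 against 1.07 ± 0.265 per 10000 peaks (exact permutation p 0.0238). Of the regions formed by merging peaks that 2 or more lists shared, 11 lay in *Ntf3*, and the mean rank score was lower in Tip60cKO at all 11, with a median difference of -25.0. Over all 144781 regions 56.9% were lower, with a median difference of -2.21. None of the 11 was called by limma, and 4 of them had an unadjusted p below 0.05, 1 of these with control peaks alone, as had 12% of all regions. Control lists held more peaks in *Ntf3*, so its regions could enter the test through them, and the 11 belong to 1 gene. These counts are therefore descriptions. Region chr6:126110635-126111007, an intron at 56.1 kb, had a peak in all 5 control lists with scores of 75.3, 80.0, 60.1, 63.4 and 76.3, and in Tip60cKO mouse 4 alone with 55.0. Lists with a peak differed by at least 4 between the genotypes, as at 2.77% of all regions. The limma adjusted p-value of this region was 0.0656, or 0.0305 when the test was limited to regions found in 5 or more lists. The region met both limits on lists through its control peaks, so these p-values are descriptions and support nothing. The strongest region in control mice was intronic at 3.2 kb (chr6:126163109-126164307), next to start 2, whose sequence with 1 SP1 motif is shown above. Peaks covered 287, 676, 0, 304 and 308 bp of it in Tip60cKO and 972, 744, 1053, 880 and 1196 bp in control mice. All control values lay above all Tip60cKO values (exact permutation p 0.00794), as at 2.31% of all regions, whereas the fold enrichment overlapped at 3.19 ± 2.0 against 4.85 ± 0.752 with a mouse without a peak set to 0 (exact permutation p 0.111). The region was named for its control values, so these p-values are descriptions. The strongest peak of the gene lay 23.0 to 25.2 kb inside it in 4 Tip60cKO mice and control mouse 2 and 2.78 to 4.26 kb inside it in the others, and these positions overlapped (exact permutation p 0.151). In the region at 23.3 kb, the one with a peak in all 10 lists and chosen after its values were seen, the mean rank scores were 71.4 and 71.7. Local background over *Ntf3* peaks was 1.08 ± 0.0527 and 1.05 ± 0.0286 times the genome level and the groups overlapped.

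**Figure D3:**
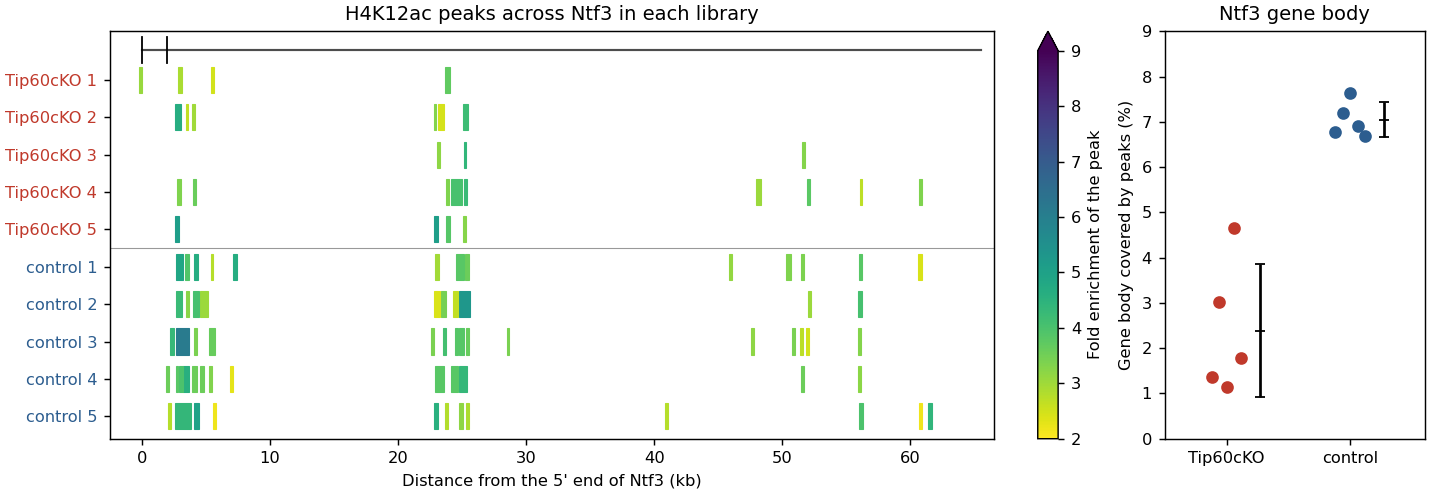
Peaks along *Ntf3* in each mouse (x axis, distance from the 5′ end in kb, one row per library, colour for fold enrichment) and the share of the gene body in peaks (percent, 1 point per mouse, with mean and SD). Control coverage lies between 6.68 and 7.63%, above the 1.13 to 4.65% of the Tip60cKO mice.

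*Ntrk2*, the gene of the BDNF receptor TrkB, was among the most strongly acetylated TSSs of both genotypes. The rank score at its 5′ end was 96.8, 89.8, 98.8, 95.4 and 99.4 in Tip60cKO and 99.9, 88.7, 96.9, 93.1 and 94.3 in control mice. The groups overlapped, with a limma adjusted p-value of 0.828. The 2 start groups of its protein-coding transcripts near the 5′ end share these peaks. The sequence of the 250 bases before the first start (chr13:58806319-58806568, plus strand) is shown because this start was acetylated in every list. It holds 19 CG dinucleotides and neither motif marked before, so it has no capitals.
Ntrk2 start 1: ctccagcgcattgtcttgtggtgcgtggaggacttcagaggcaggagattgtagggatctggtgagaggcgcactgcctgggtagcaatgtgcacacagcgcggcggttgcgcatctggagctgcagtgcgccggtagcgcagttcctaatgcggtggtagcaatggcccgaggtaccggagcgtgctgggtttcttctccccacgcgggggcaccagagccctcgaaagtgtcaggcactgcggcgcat
Peaks covered less of the TSS window on average in Tip60cKO mice, with 46.8, 40.9, 46.5, 45.5 and 34.3% of the TSS window covered in Tip60cKO and 54.7, 47.5, 58.8, 51.2 and 45.8% in control mice. The lowest control mouse lay within the Tip60cKO range, and the means of 42.8 ± 5.30 and 51.6 ± 5.29% differed with an adjusted p-value of 0.152 in limma. Coverage was lower in Tip60cKO mice for 81.0% of all 21672 genes tested, with a median difference of -4.01 percentage points. Within *Ntrk2*, peaks numbered 96, 78, 88, 62 and 39 in Tip60cKO and 73, 64, 52, 40 and 68 in control lists, and these overlapped (exact permutation p 0.310). As a share of each list they did not overlap, with 7.09, 6.90, 7.72, 6.13 and 6.07 per 10000 peaks in Tip60cKO and 5.82, 4.87, 4.45, 4.27 and 4.99 in controls. The means were 6.78 ± 0.691 and 4.88 ± 0.60 (exact permutation p 0.00794), and 2.1% of 2566 genes longer than 100 kb and 1.19% of all 23691 genes had every Tip60cKO share above every control share. Of 108 regions of *Ntrk2*, 64 had a higher and 44 a lower mean rank score in Tip60cKO. The local background over *Ntrk2* peaks was 1.05 ± 0.0105 times the genome level in Tip60cKO and 1.17 ± 0.0136 in control mice, which compares 1 input with 1, and its part in the number of peaks was not tested.

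One region of the 270 regions of all members passed limma, against 0.562% of 144781 regions. It lay in an intron of *Ntrk2* at 193.1 kb, chr13:58999359-58999957, 127624 bp from the nearest start of *Ntrk2* itself. Its rank scores were 54.5, 84.1, 73.8, 77.0 and 88.7 in Tip60cKO mice, and no control list held a peak in it, while control mice 1 and 5 had one just 5′ of it. The region entered the test through its Tip60cKO peaks alone, so its difference of 75.7, with a limma adjusted p-value of 5.9e-04, is a description. A peak in all 5 Tip60cKO and no control lists was found at 0.0387% of all regions. The peaks themselves were low, with fold enrichments of 3.08, 4.19, 3.73, 3.8 and 4.5 on pileups of 14 to 18 fragments, and the local background at them was at the genome level. With all lists cut to the same number of peaks the difference was 64.7 and its adjusted p-value 0.0895. The 300 bases around the median summit, chr13:58999518-58999817 on the plus strand, are shown since this is the called region, with its 1 E-box (CANNTG, found in 66.2% of promoters) in capitals. No base of the region was soft-masked as a repeat.
Ntrk2 region at 193.1 kb: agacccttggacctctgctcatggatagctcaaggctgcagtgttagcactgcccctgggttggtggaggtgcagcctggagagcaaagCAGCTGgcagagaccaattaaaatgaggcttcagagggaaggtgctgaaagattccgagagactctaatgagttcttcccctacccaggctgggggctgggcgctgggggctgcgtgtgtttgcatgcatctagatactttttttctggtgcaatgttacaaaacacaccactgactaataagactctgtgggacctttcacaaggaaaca
At 198.1 kb, a second intronic region (chr13:59003476-59005920) had peaks in all 10 lists, and its fold enrichment was 5.55, 4.19, 4.99, 4.25 and 3.90 in Tip60cKO and 3.21, 2.69, 3.44, 3.29 and 3.49 in control mice. All Tip60cKO mice were above all controls (exact permutation p 0.00794), as for 1.15% of 23749 regions present in every list. The scaled pileup was 6.01 ± 0.968 and 5.49 ± 0.465 and overlapped (exact permutation p 0.325), while the local background was 1.0 ± 0.00402 and 1.30 ± 0.180 times the genome level, from 1 input per genotype. This region was chosen after its values were seen. Regions at 25.7 kb, with a peak in 4 Tip60cKO and no control lists, and at 115.9 kb, with a peak in no Tip60cKO and 4 control lists, were not called. Each entered the test through 1 genotype alone, so they are given as a description.

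**Figure D4:**
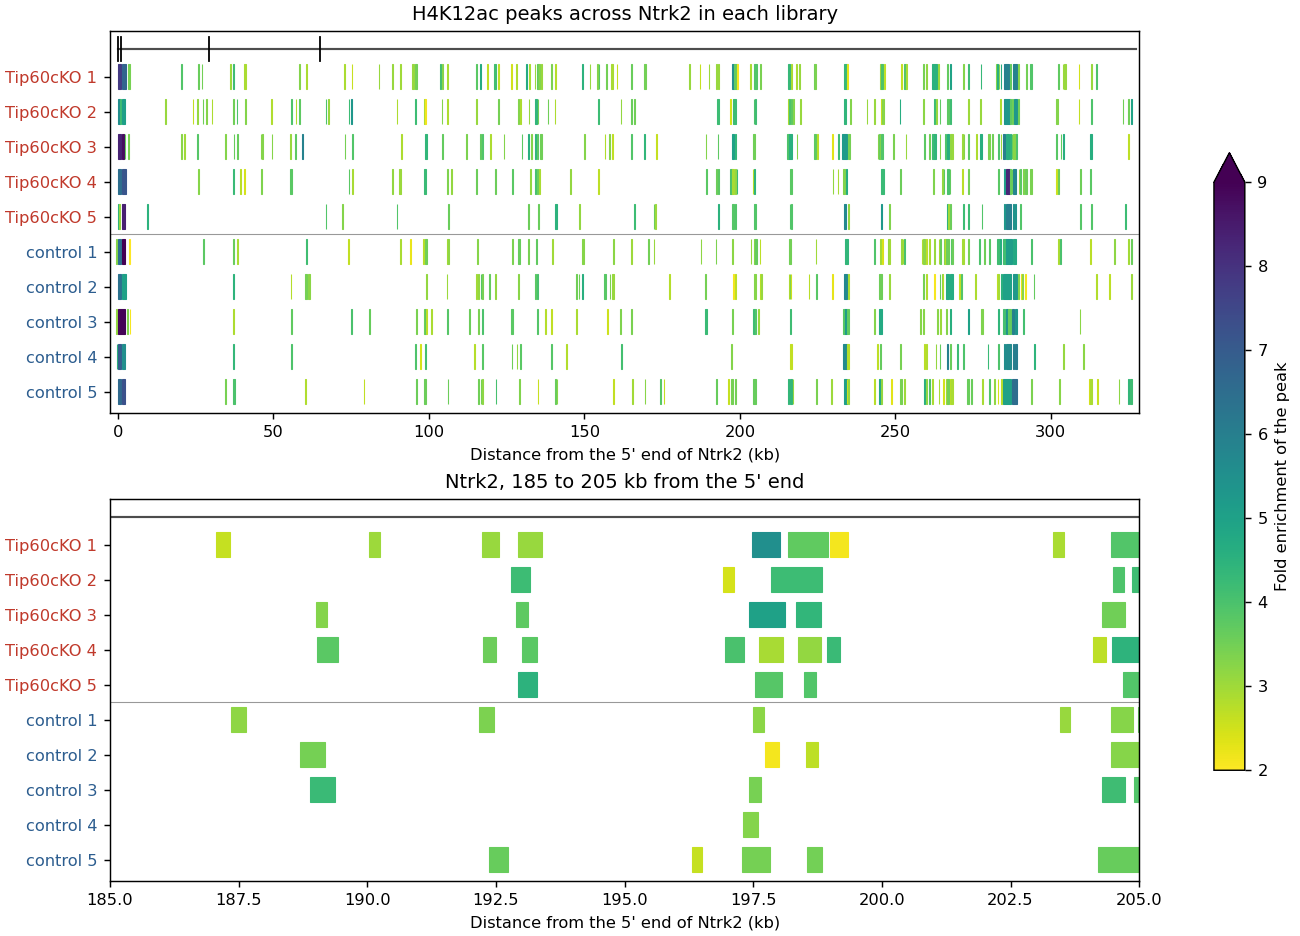
Peaks along *Ntrk2* in each mouse (x axis, distance from the 5′ end in kb, one row per library, colour for fold enrichment), with the start groups as ticks and a closer view around the called region. The called region at 193.1 kb has peaks in the 5 Tip60cKO lists and in no control list, and the region at 198.1 kb has peaks in all 10.

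*Ntrk3*, the gene of the neurotrophin 3 receptor TrkC, had no peak at its 5′ end in any list. Its acetylation centred on start group 5, 159.3 kb inside the gene, where 7 transcripts begin (chr7:78577783-78578698). The rank score there was 90.0, 91.6, 89.9, 91.3 and 88.5 in Tip60cKO and 93.7, 93.8, 90.7, 93.6 and 96.1 in control mice. The groups overlapped by one control mouse, with an adjusted p-value of 0.517. The strongest peak of the whole gene lay between 158.7 and 161.7 kb in every mouse, and its fold enrichment was 5.96, 5.73, 5.70, 6.04 and 5.10 in Tip60cKO and 7.41, 7.31, 6.81, 6.89 and 7.66 in controls. It was lower in every Tip60cKO mouse, at 5.71 ± 0.370 against 7.22 ± 0.359 (exact permutation p 0.00794), as for 6.8% of 15298 genes. The same held for its scaled pileup, at 7.58 ± 0.502 against 9.86 ± 0.517 (exact permutation p 0.00794), as for 9.99% of the genes. The median ratio of the strongest fold enrichment over all genes was 0.903. Both regions beside this start had a lower pileup. The first was named for its control values and the second chosen after its values were seen, so their p-values are descriptions. At chr7:78578549-78580246, exonic and overlapped by antisense gene Gm9885, scaled pileup was 7.2 ± 0.769 in Tip60cKO and 9.52 ± 0.869 in controls without overlap. At chr7:78575180-78578461 it was 7.13 ± 0.582 and 9.07 ± 0.747, again without overlap, with exact permutation p-values of 0.00794 each and a local background of 1.0 in both genotypes at the latter. Scaled pileup was below in every Tip60cKO mouse at 7.4% of regions present in all lists. Fold enrichment did not overlap at the former, at 5.37 ± 0.531 and 6.92 ± 0.682, as for 4.58% of those regions. It overlapped at the latter, at 5.49 ± 0.531 and 6.71 ± 0.554 (exact permutation p 0.0238). Among the remaining starts, group 2 at 19.8 kb and group 11 at 545.3 kb were acetylated in all 10 lists, with rank scores that overlapped between genotypes. *Ntrk3* held 97 regions, 58 with a lower and 39 with a higher mean rank score, and none was called by limma with all mice. Gene body coverage was 3.74 ± 1.62% and 5.08 ± 1.75%, and the limma adjusted p-value was 0.563.

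*Ngfr*, the gene of the p75 receptor, was almost without H4K12ac. No list held a peak within 2 kb of its single start, and the whole gene held 1 peak, in Tip60cKO mouse 3, of 213 bp (chr11:95585210-95585422) with a fold enrichment of 2.85. Too few lists held a peak for limma, and the exact permutation p of its length in peaks was 1. A missing peak means that the signal was below the threshold of that library, not that the histone was unacetylated.

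*Sort1* had a peak at its start in every mouse, and the place of its strongest peak did not overlap between the genotypes. The strongest peak of the gene lay at the TSS, 0.211 to 0.416 kb downstream of it, in all 5 control lists and in none of the 5 Tip60cKO lists, where it lay 75.1 to 76.0 kb downstream in the last exon. Of 10519 genes with the strongest peak at the TSS in all control lists, 0.152% had it there in no Tip60cKO list. These genes were selected by their control lists, the reverse share was not counted and the comparison was not planned, so it is a description. At the start (chr3:108284035-108284844) the fold enrichment was 6.95, 6.19, 7.21, 6.50 and 5.24 in Tip60cKO and 7.46, 8.96, 8.90, 9.08 and 8.51 in control mice. Every Tip60cKO mouse was below every control mouse, at 6.42 ± 0.769 against 8.58 ± 0.662 (exact permutation p 0.00794), as for 4.58% of regions present in all lists. The region was named for its control values, so this p-value is a description. Scaled pileup gave 8.71 ± 1.28 and 12.6 ± 1.13, also without overlap, as for 7.4% of those regions. Rank scores at the TSS were 93.6, 93.5, 95.5, 93.1 and 88.4 in Tip60cKO and 93.1, 97.7, 96.9, 98.7 and 97.9 in control mice. They overlapped at control mouse 1, and the difference of -4.03 had a limma adjusted p-value of 0.475. At the 3′ end (chr3:108358967-108361597), a region of exon and UTR chosen after its values were seen, the fold enrichment went the other way, with 7.82, 6.27, 7.85, 6.93 and 5.76 in Tip60cKO and 4.95, 4.0, 5.6, 4.36 and 4.67 in control mice. Tip60cKO values were all above the controls, at 6.93 ± 0.927 against 4.72 ± 0.608 (exact permutation p 0.00794), as for 1.15% of regions present in all lists. On the scaled pileup the groups overlapped at 10.5 ± 1.34 and 9.83 ± 0.718 (exact permutation p 0.341). The local background at this end was 1.15 ± 0.0642 times the genome level in Tip60cKO and 1.41 ± 0.253 in control mice, whereas at the start it was 1.03 and 1.07 times. A region of coding exon at 55.2 kb (chr3:108338825-108339670) had a peak in 4 Tip60cKO and no control lists, and as it entered the test through Tip60cKO peaks alone no p is given. The start overlaps the antisense gene Gm12523. Gene body coverage was 18.3 ± 7.45 and 19.3 ± 6.36% (limma adjusted p-value 0.950).

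**Figure D5:**
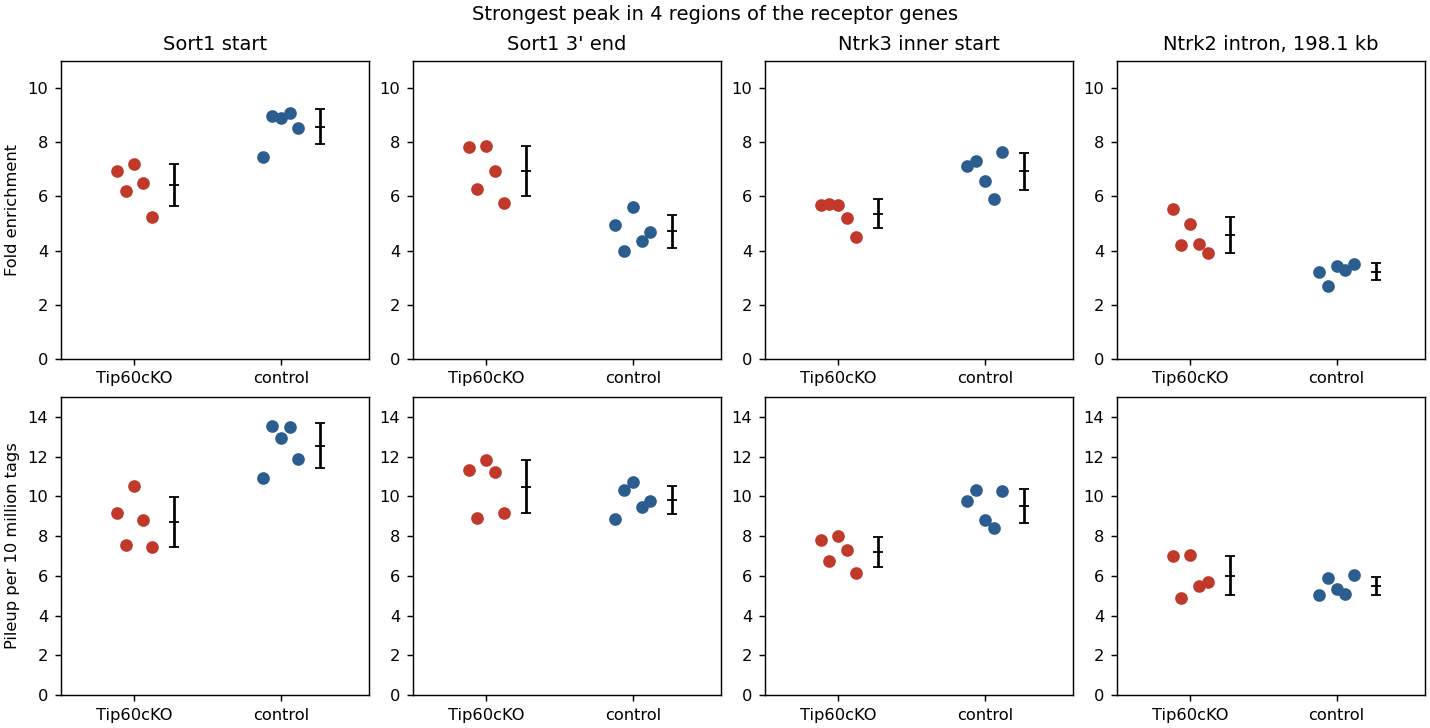
Fold enrichment (top) and scaled pileup per 10000000 tags (bottom) at 4 regions, *Sort1* start, *Sort1* 3′ end, *Ntrk3* inner start and the *Ntrk2* intron at 198.1 kb, with 1 point per mouse and bars for mean and SD. Tip60cKO mice are below controls on both scales at the *Sort1* and *Ntrk3* starts, and above them in fold enrichment but overlapping in pileup at the other regions.

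*Vgf* carried its acetylation downstream of the annotated 5′ end. At start group 2 (chr5:137030295-137030701), where 3 of its 4 transcripts begin, rank scores were 93.8, 90.2, 87.4, 85.9 and 83.8 in Tip60cKO and 96.1, 92.2, 90.7, 85.9 and 86.8 in control mice. The groups overlapped. At the 5′ end itself, 3.9 kb upstream, no Tip60cKO list had a peak within 2 kb, and the control scores were 0, 75.1, 66.8, 69.1 and 68.2. One control mouse equalled the Tip60cKO mice, and the difference was -55.9. *Vgf* entered the tests at this end through its control peaks alone, so its difference is a description and no p is read from it. It was not called over all mice and was called without control mouse 1, at -69.8. Fold enrichment of the strongest region (chr5:137030278-137032816), which spans coding exon and UTR, was 5.44 ± 0.838 against 6.58 ± 1.17 (exact permutation p 0.0794), and gene body coverage was 42.8 ± 16.2 and 47.7 ± 11.4% (limma adjusted p-value 0.841). The region was named for its control values, so its exact permutation p is a description.

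Per length, the 7 genes differed widely. In control mice *Sort1* and *Vgf* held 4.26 and 4.24 peaks per 10 kb, which do not differ beyond their spread, followed by *Ntf3* with 1.87, *Ntrk2* with 1.80, *Bdnf* with 1.55 and *Ntrk3* with 1.35, while *Ngfr* held none. The means from *Ntf3* to *Ntrk3* did not differ beyond their spread either. In Tip60cKO mice the order of the means was *Sort1* with 4.36, *Vgf* with 4.02, *Ntrk2* with 2.20, *Bdnf* with 1.29, *Ntrk3* with 1.12, *Ntf3* with 0.770 and *Ngfr* with 0.0956. Neighbours in this order from *Sort1* to *Ntf3* overlapped within their SDs. Of the 270 regions of the 7 genes, 227 were intronic, 39 exonic and 4 upstream. Mean rank scores were lower in Tip60cKO at 138 and higher at 132 of them, against 56.9% lower over all regions, and 26 regions had a peak in all 10 lists. Of these 26, fold enrichment was below in every Tip60cKO mouse at 2 and above at 2, against 4.58 and 1.15% of such regions in the genome, and scaled pileup was below at 3 and above at none, against 7.4 and 0.08%.

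The wider neurotrophin pathway was described with 44 genes of other ligands, adaptors, kinases and targets. Of these, 42 had a TSS peak in at least 2 lists and were tested, and 32 had a peak in all 10. Mean rank scores were lower in Tip60cKO for 23 and higher for 19, and none was called by limma, with 2 of 42 at an unadjusted p below 0.05 against 11.8% of all genes. The median difference was -0.840, against -0.691 over all genes tested. *Lingo1*, which encodes a partner of the p75 receptor complex, had the smallest p, with rank scores of 92.1 in Tip60cKO and 98.3 in control mice (limma adjusted p-value 0.387). The adaptor gene *Frs3* followed with 88.6 and 94.9 (adjusted p-value 0.415), and *Pik3r1*, which encodes a regulatory subunit of PI3 kinase, had 84.9 and 80.0 (adjusted p-value 0.503). Coverage of the TSS window was lower for 35 of the 42, and 1 fell past the threshold, which 1.56% of all genes passed. It was *Mapk3*, which encodes the kinase ERK1, from 43.5 ± 6.30% in controls to 23.4 ± 5.93% in Tip60cKO (limma adjusted p-value 0.0259). The call was lost in 7 of 10 fits without 1 mouse, with adjusted p-values of 0.0167 to 0.0755 over the 10. Over all genes 81.0% had lower coverage, against 83.3% of the list.

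The genes whose acetylation varied most like that of *Bdnf* were named over the 10 libraries from 9657 protein-coding genes with a TSS peak in every list. *Bdnf* was taken at start group 3, since its 5′ end had no peak in 2 lists. On log2 fold enrichment relative to the median of each library, Pearson's r was 0.942 for *Mfsd12*, 0.926 for *Gsg1l* and 0.911 for *Mapkap1*. These are descriptions over libraries that share genotype, input and depth, and the 3 were picked as the highest of 9657 values.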

How the data were processed

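H4K12ac ChIP-Seq libraries of 5 Tip60cKO and 5 control mice were analysed from the peak lists deposited by the authors, 1 list per library. The replicates are numbered samples of each genotype, and p-values measure the spread between them, which may be partly technical. The authors mapped reads to mm10 (GRCm38) with STAR, used samtools to drop duplicate reads, and ran MACS 2.1.0.20140616 (q below 0.1) on each library against the pooled input of its genotype, of which there was 1. As deposited, pileup is a signal, the coverage by fragments at a peak's summit. Fold enrichment as deposited is a ratio, coverage over the local background. The authors gave p-values and q-values as −log10 numbers. No reads were used, so no counting error is given. Lists grow with depth, and a missing peak is a signal below threshold. Input libraries gave 2 backgrounds, and genotype and input cannot be told apart in fold enrichment.

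Genes and transcripts came from GENCODE M21. A peak counted where at least 1 base overlapped. Gene bodies began 2 kb past the annotated 5′ end and can hold inner start groups, as in *Bdnf*, *Ntrk3* and *Vgf*. Rank scores and coverage of the TSS window (2 kb on either side), gene body (genes over 4 kb), start groups and consensus regions (merged peaks in at least 2 lists) were fitted over the whole table with limma 3.58.1 in R 4.3.3, features with a peak in at least 2 lists, and adjusted by Benjamini and Hochberg at 0.05. Single values were compared with a two-sided exact permutation test (252 assignments, smallest p 0.00794) in Python 3.11.15 with scipy 1.17.1. Code was tested on simulated data. The members and gene lists were chosen with earlier results of these data known. Named are all 7 genes and all start groups, their called regions, those with a peak in at least 4 more lists of one genotype, the strongest region of each gene in controls, the 3 genes most like *Bdnf*, and the pathway genes that were called or had the 3 smallest p-values. Naming the strongest region by its control values favours higher values in controls, so p-values at such regions are descriptions. Regions outside this rule are said to be chosen after their values were seen. Libraries shared at most 9 identical peaks, so none was counted as a duplicate. Alternatives changed the test, prior, threshold, list length, window, scale, lane and replicates. The scaled pileup and the share of the list were alternatives added after seeing the data.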

Additional observations from a re-analysis of the deposited data

Results flagged for a closer look

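Of 60 groups of 5 mice examined over the 7 genes (rank score and coverage at the TSS, gene body coverage, number of peaks and fold enrichment of the strongest peak), 10 held a mouse far from the other 4, with a gap above 0.71 of the range of the group. Chance alone gives about 5% of groups. Values of 0 and small peak numbers make such gaps common here.

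The *Bdnf* TSS rank score was 0 in Tip60cKO mouse 4, with the next mouse at 69.7, and 0 in control mouse 4, with the next at 67.7. The *Ntf3* TSS rank score was 68.1 in Tip60cKO mouse 1 and 71.7 in control mouse 4, where all others were 0, and the coverage of its TSS window in these mice was 5.47 and 3.05%. The *Vgf* TSS rank score was 0 in control mouse 1, with the next control at 66.8, and *Vgf* held 1 peak in Tip60cKO mouse 4, where the next mouse held 4. *Ngfr* gene body coverage was 1.26% in Tip60cKO mouse 3, from 1 peak, and 0 in the others.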

How the results depend on the processing

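The exact permutation test with Benjamini-Hochberg adjustment called 0 of all features in every table, so its 0 says nothing about the members. Gene body coverage gave 1 member (*Ntf3*) and 0 under the exact permutation test, a trended robust prior or the replicate block, and 0 to 2 when a mouse was left out. TSS rank score and start groups gave 0, and 1 (*Vgf*) under a rule of a peak in at least 4 more lists of one genotype, and 0 to 1 without a mouse. TSS coverage gave 0 throughout, and the replicate block called 0 of all 21672 genes there, so the calls of *Mapk3*, *Gfap* and *Syt1* were lost. With a window of 1 kb on either side *Mapk3* (0.0504) and *Syt1* (0.0530) were also lost. With the same number of peaks per list *Gfap* (difference -10.1, limma adjusted p-value 0.220) and *Syt1* (-12.3, 0.286) were lost, where the differences had been -15.0 and -22.1. Regions gave 1, and 0 under the exact permutation test or the trended prior, 3 with a peak in at least 5 lists (also *Ntf3* at 56.1 kb and *Ntrk2* at 198.1 kb, adjusted p-values 0.0305 and 0.0327), 5 under the rule of 4 more lists, and 1 to 3 without a mouse. With at least 5 lists, *Ntf3* at 56.1 kb and *Ntrk2* at 193.1 kb entered through the peaks of 1 genotype, so these calls are no support. The 1 region was another under 2 alternatives. By log2 fold enrichment over regions in all lists it was the *Sort1* 3′ end (0.51, adjusted p-value 0.0460). With the same number of peaks per list it was *Ntrk2* at 198.1 kb, which then entered through Tip60cKO peaks alone.

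The *Ntf3* difference of -4.65 had an adjusted p-value of 0.198 with the exact test, 0.0819 with the trended prior and -4.65 with 0.254 under the replicate block. It ranged from -5.22 to -4.34 without a mouse, was -5.37 in lane 7 and -3.58 in lane 8, and had an adjusted p-value of 0.0471 with lane as a covariate. The *Ntrk2* region at 193.1 kb kept 75.7 with adjusted p-values of 0.375 (exact), 0.118 (trended prior) and 0.0477 (block), gave 64.7 with 0.0895 at the same number of peaks per list, and 72.4 to 80.9 without a mouse. Same-numbered samples correlated at -0.0375 to 0.0553 for TSS rank scores, -0.151 to 0.135 for TSS coverage and -0.240 to 0.249 for gene body coverage, not above 0.1 in every pair, so the block pairs samples by number only.

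A change of sign was counted where the first difference exceeded its standard error. Lane 8 alone turned *Bdnf* start 8 to 1.27, and ranking by pileup turned *Ntrk3* start 2 to -1.24, for causes that were not tested. Single mice decided other values. The *Ntrk2* regions at 25.7 kb and 115.9 kb were called at 67.9 without Tip60cKO mouse 5 and at -61.5 without control mouse 4. Without Tip60cKO mouse 4 the *Sort1* region at 55.2 kb was called at 73.7 and the *Ntf3* region at 56.1 kb at -71.0. These regions entered through 1 genotype in those fits, where the other was at 0 in all mice, so the calls are no support. The *Ntrk3* region at 348.4 kb was called at -56.4 without Tip60cKO mouse 3, and that at 340.0 kb at -57.2 without control mouse 3. The former had a peak in 2 Tip60cKO and 5 control lists, and the latter in 1 Tip60cKO and 4 control lists. Both met the limit on lists with their control peaks alone, so these calls are no support either. Outside the fits within 1 lane, the number called over all genes ranged from 0 to 374 for TSS rank scores, 0 to 1416 for TSS coverage and 0 to 250 for gene bodies. Lane 8 alone gave 931 for TSS rank scores.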
